A study of Saccharomyces cerevisiae with 91 samples.

Results

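The genes examined here encode subunits of the RSC, SWI/SNF, SWR1 and ISWI chromatin remodelers of budding yeast and the remodelers Chd1 and Fun30, 41 genes in all, and they were chosen by name and complex. Of these, 36 had a row of their own in the deposited annotation of in vivo nucleosome dyads, beside 4500 other rows of open reading frames (ORFs). SWC7, ITC1 and FUN30 shared a row with a neighboring or overlapping ORF and were kept apart, and LDB7 and IOC2 had no row. The study reconstituted chromatin genome-wide from purified components and remodeled it with the INO80 complex. The positions used here come from its 1 in vivo MNase-seq library, prepared from nuclei of log phase cells of the wild-type laboratory strain BY4741 in YPD medium, and none of its reconstituted samples enters the values. As there is a single library, no replicate error can be given. The depth behind each dyad is unknown, because the values are positions in bp.

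ATP-dependent remodelers slide, evict or edit nucleosomes. In yeast most promoters hold a nucleosome-depleted region (NDR) between the −1 nucleosome and the +1 nucleosome, the first one of the transcribed region. RSC widens NDRs, SWI/SNF moves and evicts nucleosomes at many regulated promoters, SWR1 binds NDRs and exchanges H2A for the variant H2A.Z in the flanking nucleosomes, and the ISWI complexes and Chd1 space the arrays over genes. The genes that encode these machines are themselves packaged, and the question here is how their own promoters are organized. The NDR length is the distance from the −1 dyad to the +1 dyad, a dyad being the midpoint of the DNA in a nucleosome, so that about 73 bp at either end of each NDR lie within a nucleosome core.

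The sequences of 8 of these promoters are shown first because they hold the motifs described below. They are R64 reference sequence from RefSeq, the build to which the deposited coordinates refer, written 5′ to 3′ in the direction of transcription. Each covers 200 bases that end 21 bp upstream of the +1 dyad, except at SWR1, where they end 61 bp upstream of it. Capitals mark TTACCC, the core of the Reb1 motif, the Abf1 motif and CGCGC, the core of the site known for Rsc3 and Rsc30, each on either strand. RSC1, RSC3 and SNF2 held both a Reb1 and an Abf1 motif, ARP9 and SWI3 an Abf1 motif and CGCGC, SWR1 2 Reb1 motifs in opposite orientation, CHD1 1 Reb1 motif and RSC30 1 Abf1 motif.
RSC1, chrVII:601455-601654, plus strand: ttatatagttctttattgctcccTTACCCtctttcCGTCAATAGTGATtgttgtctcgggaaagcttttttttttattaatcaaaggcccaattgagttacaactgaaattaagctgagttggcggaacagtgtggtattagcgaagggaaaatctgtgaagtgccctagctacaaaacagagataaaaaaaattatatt
RSC3, chrIV:1071685-1071884, minus strand: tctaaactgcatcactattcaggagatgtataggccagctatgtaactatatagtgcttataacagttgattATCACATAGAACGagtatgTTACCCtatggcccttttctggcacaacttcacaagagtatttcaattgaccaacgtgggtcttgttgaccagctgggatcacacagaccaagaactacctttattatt
SNF2, chrXV:860364-860563, minus strand: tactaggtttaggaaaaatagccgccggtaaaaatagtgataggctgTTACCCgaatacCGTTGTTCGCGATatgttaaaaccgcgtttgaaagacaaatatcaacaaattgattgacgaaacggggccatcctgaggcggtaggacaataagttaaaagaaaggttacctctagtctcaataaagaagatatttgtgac
ARP9, chrXIII:337577-337776, plus strand: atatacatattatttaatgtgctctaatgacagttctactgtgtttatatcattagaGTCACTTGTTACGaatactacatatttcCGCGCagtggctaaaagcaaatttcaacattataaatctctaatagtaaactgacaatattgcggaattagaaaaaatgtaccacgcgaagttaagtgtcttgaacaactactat
SWI3, chrX:94555-94754, minus strand: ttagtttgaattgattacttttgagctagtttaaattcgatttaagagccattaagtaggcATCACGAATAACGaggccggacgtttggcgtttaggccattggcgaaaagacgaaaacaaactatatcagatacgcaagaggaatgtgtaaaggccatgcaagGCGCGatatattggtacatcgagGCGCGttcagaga
SWR1, chrIV:1135559-1135758, plus strand: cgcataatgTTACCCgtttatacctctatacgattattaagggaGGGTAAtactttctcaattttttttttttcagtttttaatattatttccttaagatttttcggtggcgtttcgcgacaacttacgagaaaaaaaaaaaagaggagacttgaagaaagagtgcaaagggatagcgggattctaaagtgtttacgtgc
CHD1, chrV:504879-505078, plus strand: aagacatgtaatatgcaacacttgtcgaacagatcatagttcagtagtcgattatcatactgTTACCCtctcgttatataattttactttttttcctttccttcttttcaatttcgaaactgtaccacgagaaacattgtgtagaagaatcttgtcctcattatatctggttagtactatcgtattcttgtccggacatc
RSC30, chrVIII:217855-218054, minus strand: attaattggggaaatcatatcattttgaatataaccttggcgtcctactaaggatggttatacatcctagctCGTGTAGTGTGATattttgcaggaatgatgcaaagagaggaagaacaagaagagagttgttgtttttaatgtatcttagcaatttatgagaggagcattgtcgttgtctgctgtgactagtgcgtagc

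The remodeler genes had NDRs of ordinary median length and, by the first of 2 deposited columns of +1 dyads, few extremes. The NDR length ran from 138 to 500 bp over the 36 genes with a median of 266.5 bp and quartiles of 249.5 and 288 bp. Over the other ORFs with an NDR length the median was 265 bp and the quartiles were 228 and 298 bp. In all, 25 of the 36 genes (69.4%, exact Clopper-Pearson 95% interval 51.9 to 83.7%) lay within the quartiles of all ORF rows, against 50.1% of the other ORFs, a share just below that interval. Intervals of shares cover counting error only and treat genes as independent. The NDR was longer than the upper quartile of all ORF rows at 7 genes (19.4%), against 24.9% of the other ORFs, and shorter than the lower quartile at 4 genes (11.1%), against 25.0%. With a second deposited column of +1 dyads, read against its own quartiles, 3 genes (8.33%) were long and 7 (19.4%) short, against 24.5 and 24.8% of the other ORFs, so that which of these 2 counts is larger depends on the column. By the first column IOC4 alone exceeded 400 bp, as did 7.33% of the other ORFs, and BDF1 alone was below 150 bp, as were 6.50%. By the second column IOC4 and RSC30 exceeded 400 bp, with 471 and 406 bp. BDF1, SNF11 and SNF6 were then below 150 bp, with 114, 117 and 112 bp. The shares of the other ORFs beyond these limits were not counted for the second column. Lengths by the second column run from its +1 dyad to the same −1 dyad as in the first. They therefore mix 2 sets of positions and can fall below 120 bp, the shortest length above 0 by the first column.

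**Figure D1:**
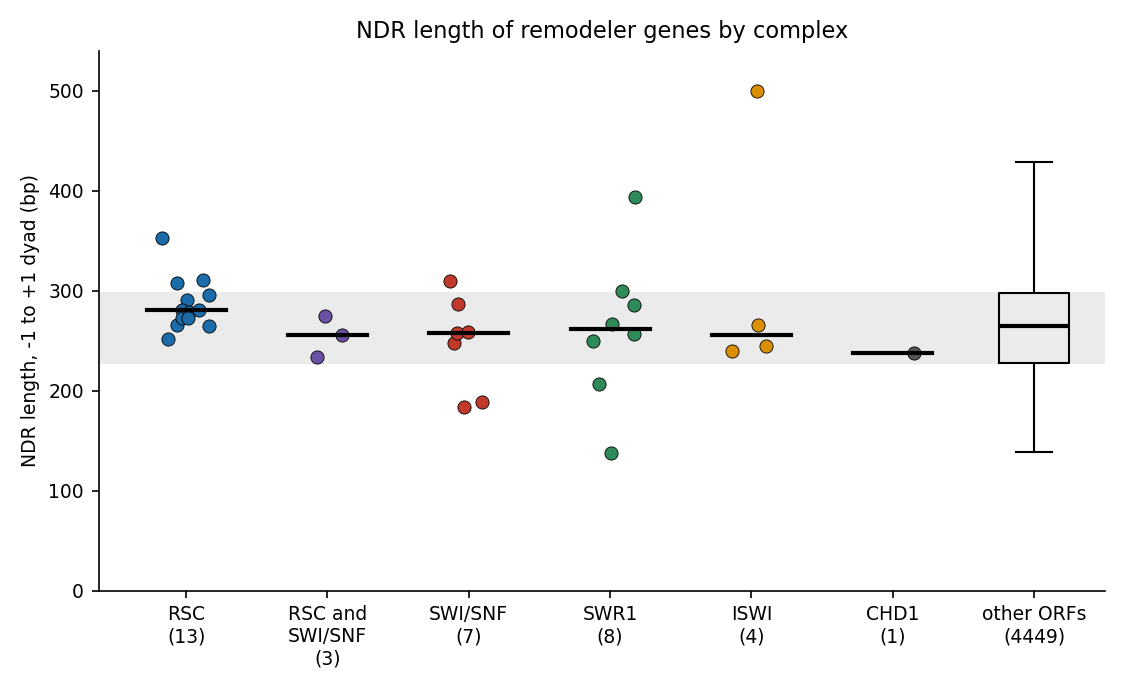
NDR length in bp (vertical axis) of each remodeler gene with a row of its own, grouped by complex with the number of genes in parentheses. Points are genes, black lines medians, and the box shows the other ORFs with median, quartiles and whiskers from the 5th to the 95th percentile. The grey band spans the quartiles of the other ORFs, 228 to 298 bp. IOC4 at 500 bp and BDF1 at 138 bp lie farthest out, and 13 RSC genes lie between 252 and 353 bp.

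RSC genes had the highest median NDR length of the complexes. RSC is the abundant and essential remodeler of the SWI/SNF family. The median NDR length of the 13 genes that encode subunits found only in RSC was 281 bp, and 11 of them exceeded 265 bp, the median of the other ORFs, as 49.9% of those ORFs did themselves. The shortest was at RSC3, one of 2 paralogs for zinc cluster DNA-binding subunits, with 252 bp. The longest was at STH1, which encodes the ATPase, with 353 bp, longer than at 87.4% of the other ORFs, although a second column of +1 dyads gives 175 bp there. RSC9 had 311 bp and NPL6 308 bp, and the remaining 9 lay between 265 bp at RSC2 and 296 bp at RSC4. None of the RSC genes fell below the lower quartile of all ORF rows. The further remodeler genes described at the end, most of them for INO80 and shared factors, had the same median of 281 bp. By the second column the medians were 284 bp for the RSC genes and 263 bp for those further genes.

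The 3 genes whose products are shared by RSC and SWI/SNF had NDRs of 234 bp at ARP7 and 275 bp at ARP9, which encode a pair of actin-related proteins, and 256 bp at RTT102. Among the 7 SWI/SNF genes the median was 258 bp. The range was from 184 bp at SWI1, for a subunit with an ARID domain, and 189 bp at SNF6 to 310 bp at SNF2, which encodes the ATPase. SWI3 with 248 bp, SNF5 with 258 bp, SNF12 with 259 bp and SNF11 with 287 bp lay between them. Only SNF2 and SNF11 of the 7 were above the median of the other ORFs, whereas 11 of 13 RSC genes were. The complexes hold few genes, and the difference between them was not tested.

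The SWR1 genes covered a wide range. BDF1, which encodes a bromodomain protein that is also associated with TFIID, had the shortest NDR of all by the first column, with 138 bp. Of the other ORFs 4.9% had a shorter one. SWR1, which encodes the ATPase, had 394 bp, longer than at 91.8% of the other ORFs. VPS71 with 207 bp also lay below the lower quartile and SWC4, whose product also belongs to the NuA4 acetyltransferase, lay at 300 bp. VPS72 with 250 bp, SWC3 with 257 bp, SWC5 with 267 bp and YAF9 with 286 bp lay between the quartiles, and the median of the 8 genes was 262 bp.

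Of the ISWI genes, ISW1 and ISW2, which encode the ATPases, had NDRs of 240 and 266 bp. IOC3, for the partner of Isw1 in Isw1a, had 245 bp. IOC4, for a PWWP domain partner of Isw1 in Isw1b, had 500 bp, longer than at 98.7% of the other ORFs. Its −1 dyad lay 445 bp upstream of the transcription start site (TSS) and its +1 dyad 55 bp downstream of it. The median of the 4 genes was 255.5 bp. CHD1, which encodes a remodeler that acts without partner subunits in purified form, had 238 bp. The ATPase genes ranged widely, with 394 bp at SWR1, 353 bp at STH1, 310 bp at SNF2, 266 bp at ISW2, 240 bp at ISW1 and 238 bp at CHD1.

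The rows shared with another ORF gave 233 bp for SWC7 with IKI3, 438 bp for ITC1, which encodes the partner of Isw2, with YGL132W, and 272 bp for FUN30 with YAL019W-A. Which ORF of a shared row the dyads belong to is not stated in it. With these 3 genes added the median NDR length was 267 bp.

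**Figure D2:**
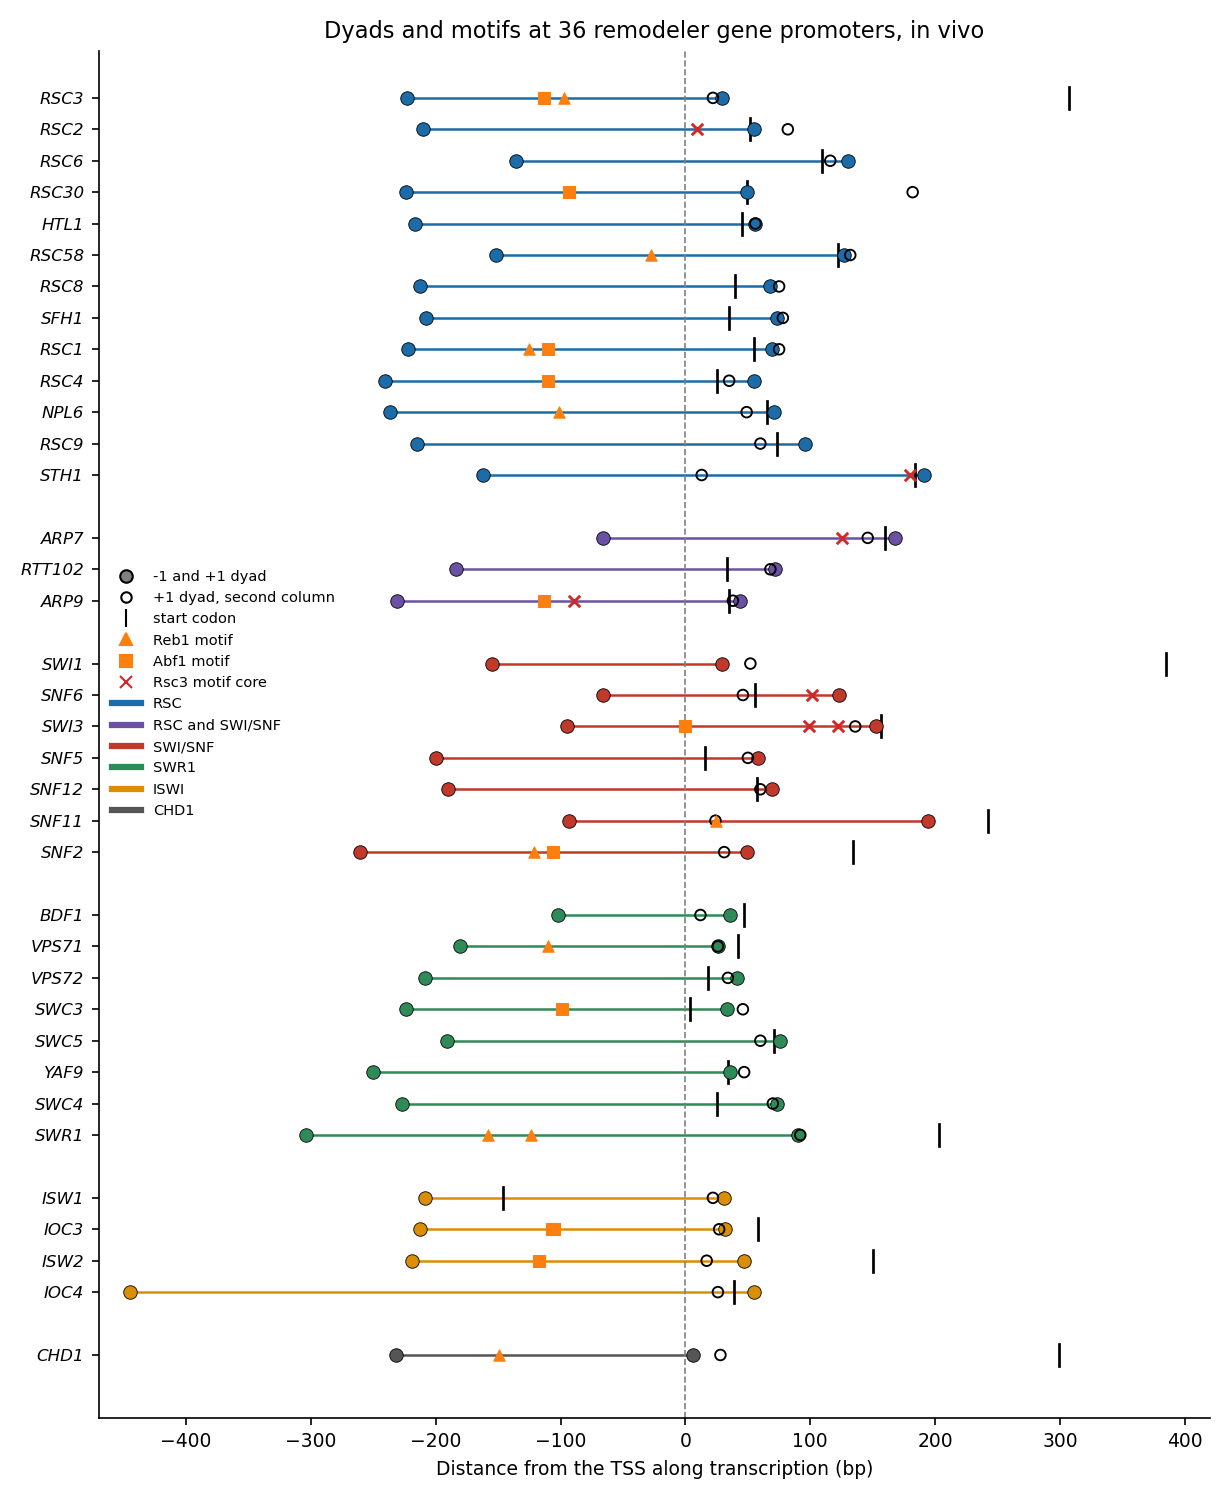
Map of the 36 promoters, aligned at the TSS (dashed line), with distance along transcription in bp on the horizontal axis and genes grouped by complex and sorted by NDR length. Filled circles are the −1 and +1 dyads, open circles the +1 dyad of the second column, vertical ticks the start codons, triangles Reb1 motifs, squares Abf1 motifs and crosses CGCGC. Most Reb1 and Abf1 motifs lie near the middle of the NDR, and 5 of 6 genes with CGCGC have it near the +1 dyad.

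The +1 dyads of the remodeler genes lay at about the same distance from the TSS as those of other ORFs. From TSS to +1 dyad the median was 57 bp and the quartiles were 39.75 and 79.5 bp, and over the other ORFs the median was 54 bp and the quartiles were 40 and 72 bp. At 26 of 36 genes the TSS was within 73 bp of the +1 dyad, that is inside the region that the core would cover, and this was so at 76.2% of the other ORFs. CHD1 had the closest +1 dyad, 6 bp downstream of its TSS, followed by VPS71 with 26 bp and RSC3 and SWI1 with 29 bp each. By complex the medians in the first column were 69 bp for RSC and for SWI/SNF, 72 bp for the shared subunits, 39.5 bp for ISWI and 38.5 bp for SWR1. In the second column they were 75 bp for RSC, 50 bp for SWI/SNF, 68 bp for the shared subunits, 23 bp for ISWI and 46.5 bp for SWR1.

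A group of 7 genes (19.4%, interval 8.19 to 36%) had a +1 dyad more than 100 bp from the TSS, against 14.0% of the other ORFs. All 7 encode subunits of RSC or SWI/SNF, namely SNF11 with 194 bp, STH1 with 191 bp, ARP7 with 168 bp, SWI3 with 153 bp, RSC6 with 130 bp, RSC58 with 127 bp and SNF6 with 123 bp. RSC, SWI/SNF and their shared subunits account for 13, 7 and 3 of the 36 genes, which is most of the set. Outside the 36 genes, the shared row of ITC1, an ISWI gene, also had a far +1 dyad. It lay 149 bp from the TSS, and 164 bp from it by the second column. Of 20 further remodeler genes, described at the end, 7 also had such a far +1 dyad. The values that follow are again those of the 7 genes named first. Their NDRs ranged from 189 bp at SNF6 to 353 bp at STH1, both outside the quartiles, with the other 5 within them. At 5 of the 7 the TSS was closer to the −1 dyad than to the +1 dyad, and at RSC6 and RSC58 it was closer to the +1 dyad. For a given NDR length the choice of genes with a far +1 dyad favors this. The share among other ORFs with a far +1 dyad was not counted. The −1 dyad was 66 bp upstream of the TSS at ARP7 and SNF6, 93 bp at SNF11, 95 bp at SWI3, 136 bp at RSC6, 152 bp at RSC58 and 162 bp at STH1. ARP7 and SNF6 were the 2 genes with the TSS within 73 bp of the −1 dyad, as at 8.98% of the other ORFs. The 5′ end of RSC6 is not listed as mapped in the annotation, and of the others in this group all have both ends mapped.

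The annotation holds a second column of +1 dyads, of unstated origin, which gives a second reading of each position. Its values end in the same digit at 4947 of 4949 transcripts and so lie on a grid, whereas those of the first column do not. Over the 36 genes the columns differed by a median of 13.5 bp with quartiles of 6 and 23.25 bp, and over the other ORFs by 11 bp with quartiles of 5 and 20 bp. They differed by more than 50 bp at 4 genes (11.1%), against 8.65% of the other ORFs. At 3 of these the second column placed the +1 dyad closer to the TSS, at 13 instead of 191 bp for STH1, 24 instead of 194 bp for SNF11 and 46 instead of 123 bp for SNF6. At RSC30 it placed it farther away, at 182 instead of 49 bp. With the second column and the same −1 dyad, the distance was 175 bp at STH1, 117 bp at SNF11, 112 bp at SNF6 and 406 bp at RSC30. The place of these 4 genes among the rest thus depends on the column. The far +1 dyads of ARP7, SWI3, RSC6 and RSC58 were kept, at 146, 136, 116 and 132 bp, and with RSC30 they made 5 of 36 genes beyond 100 bp, against 12.0% of the other ORFs.

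**Figure D3:**
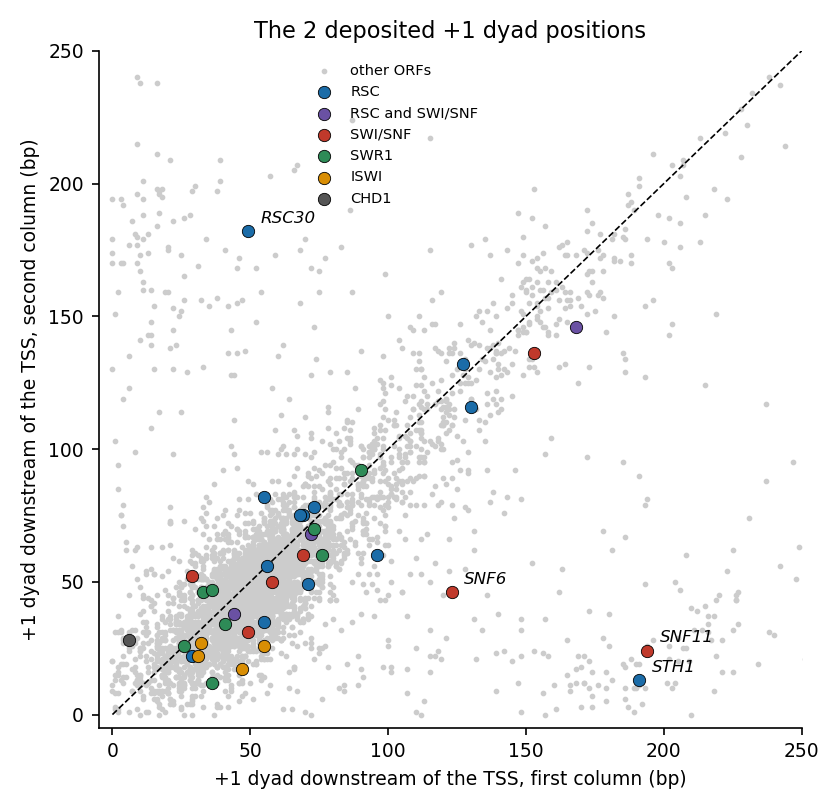
Distance from the TSS to the +1 dyad in bp in the first (horizontal axis) and second (vertical axis) deposited column, up to 250 bp. Colored points are remodeler genes by complex, grey points other ORFs, and the dashed line marks equal values. STH1, SNF11 and SNF6 lie below the line and RSC30 above it, each by more than 50 bp.

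On the upstream side the −1 dyad lay a median of 211.5 bp from the TSS, with quartiles of 176.2 and 224.8 bp, beside 211 bp with quartiles of 158.8 and 248 bp over the other ORFs. The medians were 215 bp for RSC, 216.5 bp for SWR1, 216 bp for ISWI, 184 bp for the shared subunits and 155 bp for SWI/SNF. The shorter SWI/SNF distance was made up of 66 bp at SNF6, 93 bp at SNF11, 95 bp at SWI3 and 155 bp at SWI1, while SNF12, SNF5 and SNF2 had 190, 200 and 261 bp. The farthest −1 dyads were those of IOC4 with 445 bp and SWR1 with 304 bp.

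The related genes of RSC, SWI/SNF and ISWI were compared as 8 pairs. By the first column their NDR lengths differed by 7 to 43 bp with a median of 26 bp, and over all 630 pairs of the 36 genes the median difference was 37.5 bp. By the second column they differed by 2 to 161 bp with a median of 46.5 bp, next to 46 bp over all pairs, so a closer likeness of related genes depends on the column. The values that follow are from the first column unless stated. The closest pair was RSC6 and SNF12, homologous subunits, with 266 and 259 bp. The ATPase genes STH1 and SNF2 were farthest apart with 353 and 310 bp, and their +1 dyads lay 191 and 49 bp from the TSS, but 13 and 31 bp from it by the second column. For the actin-related pair ARP7 and ARP9 the NDRs of 234 and 275 bp were placed differently, with +1 dyads at 168 and 44 bp and −1 dyads at 66 and 231 bp. RSC8 and SWI3, which encode homologous SANT domain subunits, showed the same kind of shift, with NDRs of 281 and 248 bp, +1 dyads at 68 and 153 bp and −1 dyads at 213 and 95 bp.

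The remaining pairs were placed alike. RSC1 and RSC2, which encode bromodomain subunits that replace each other in RSC, had +1 dyads at 69 and 55 bp and −1 dyads at 222 and 210 bp. RSC3 and RSC30 had +1 dyads at 29 and 49 bp and −1 dyads at 223 and 224 bp, but the second column put their +1 dyads 160 bp apart. SFH1 and SNF5, homologous core subunits, had NDRs of 281 and 258 bp with +1 dyads at 73 and 58 bp. ISW1 and ISW2 had +1 dyads at 31 and 47 bp and −1 dyads at 209 and 219 bp. In 4 of the 8 pairs the +1 dyads were within 20 bp of each other, and in the other 4 they were 61 to 142 bp apart. The median difference was 40.5 bp over the 8 pairs and 35.5 bp over all 630 pairs of the 36 genes. Related genes were thus no closer in the median by this measure. By the second column 3 of the 8 pairs were within 20 bp.

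The start codon lay near the +1 dyad of the remodeler genes and, by the first column of +1 dyads, more often upstream of it than at other genes. The distance from the TSS to the start codon had a median of 55.5 bp, against 69 bp over the other ORFs that matched the annotation. At 25 of 36 genes (69.4%, interval 51.9 to 83.7%) the +1 dyad was at or past the start codon, against 43.8% of the other ORFs. By the second column this was so at 18 of 36 genes (50.0%, interval 32.9 to 67.1%), against 37.5% of the other ORFs, so the difference lies outside the interval with the first column and inside it with the second. The margin was small at many genes. The start codon was within 20 bp of the +1 dyad at 16 of 36 genes, against 38.2% of the other ORFs, and the median difference between the columns was 13.5 bp. At RSC30 the dyad fell on the first base of the coding region, and at YAF9, RSC2, RSC58 and SWC5 it lay 2, 3, 5 and 5 bp inside it.

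By the first column, the genes with the +1 dyad farthest before the start codon had long leaders. The +1 dyad lay 356 bp before the start codon at SWI1, 293 bp at CHD1, 278 bp at RSC3, 113 bp at SWR1, 103 bp at ISW2 and 85 bp at SNF2. The leaders of these genes, from TSS to start codon, were 385, 299, 307, 203, 150 and 134 bp. Of the 6 ATPase genes with a row of their own, SWR1, SNF2, ISW2 and CHD1 had their +1 dyad in the leader by either column. At STH1, with a leader of 184 bp, the dyad lay there only by the second column, 13 bp from the TSS. At ISW1 it did not lie there by either column. ISW1 was the only gene with its TSS inside the annotated coding region, by 146 bp, so that its +1 dyad lay 177 bp past the annotated start codon, and the match of TSS and annotation is uncertain there.

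At 11 genes the promoter was shared with a divergent gene. The next annotated gene upstream was on the other strand at 19 of 36 genes (52.8%), close to the 52.1% of the other ORFs. In 11 of the 19 the −1 dyad of the remodeler gene was at the same time the +1 dyad of the divergent neighbor, so that both genes shared 1 NDR (57.9%, interval 33.5 to 79.7%), against 43.1% of other ORFs with a divergent neighbor. Over all genes with a known neighbor this was 11 of 36 (30.6%, interval 16.3 to 48.1%) against 22.5%. The shares of the other ORFs lie within these intervals. The shared NDRs were those of RSC8 with IRC5 (281 bp), RSC9 with MSC1 (311 bp), STH1 with RRT14 (353 bp), RTT102 with TAF1 (256 bp), SNF5 with APM3 (258 bp), SNF12 with MRPL50 (259 bp), SWR1 with RQC1 (394 bp), SWC4 with CUL3 (300 bp), SWC5 with PBP2 (267 bp), YAF9 with YNL108C (286 bp) and ISW1 with RRT2 (240 bp). Of these neighbors IRC5 encodes another Snf2 family ATPase and TAF1 the largest subunit of TFIID. Both of the longest NDRs of ATPase genes, at SWR1 and STH1, belonged to this group.

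The other 8 genes with a divergent neighbor, ARP7, HTL1, SNF2, SWI1, SWI3, SNF6, SNF11 and CHD1, had a −1 dyad that is not listed as the +1 dyad of that neighbor. A neighbor without an ORF row was counted as no match, and no NDR length is listed for the neighbors of HTL1 and SWI1. At 7 of them the coding regions were more than 500 bp apart, up to 1609 bp at CHD1, and at HTL1 the distance was 223 bp. The median distance to the upstream coding region was 342 bp over the 36 genes and 421 bp over the other ORFs. The −1 dyad lay inside the coding region of the upstream neighbor at 16 of 36 genes (44.4%, interval 27.9 to 61.9%), against 29.1% of the other ORFs, a share within that interval. Genes with a divergent neighbor had a median distance from TSS to +1 dyad of 72 bp and those without one of 49 bp, whereas among the other ORFs these were 55 and 54 bp. The divergent set includes STH1, ARP7, SWI3, SNF6 and SNF11, that is 5 of the 7 genes with a far +1 dyad.

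Reb1 and Abf1 are general regulatory factors, DNA-binding proteins that keep NDRs open at many promoters, and both can set the position of adjacent nucleosomes. TTACCC was present in the NDR of 9 of 36 genes (25.0%, interval 12.1 to 42.2%), against 18.1% of the other ORFs. The Abf1 motif was present at 10 of 36 (27.8%, interval 14.2 to 45.2%), against 15.8%. Either was present at 16 of 36 (44.4%, interval 27.9 to 61.9%), against 31.8%, and both at RSC1, RSC3 and SNF2 (8.33%), against 2.07%. All 4 shares of the other ORFs lie within the intervals of the remodeler genes, for both motifs together 1.75 to 22.5%, and a match of letters is no evidence of binding. In windows of the same length for every gene, 250 bp upstream of the +1 dyad, 9, 11 and 17 genes held TTACCC, the Abf1 motif or either, against 17.7, 16.0 and 31.8% of the other ORFs.

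By the first column of +1 dyads, the centers of the Abf1 motifs lay 132 to 179 bp upstream of the +1 dyad at all 10 genes, with a median of 154 bp, taking the motif nearest to the dyad. By the second column they lay 132 to 275 bp upstream, with 275 bp at RSC30, 185 bp at RSC1 and 132 to 151 bp at the other 8. The TTACCC motifs lay 126.5 to 213.5 bp upstream with a median of 169.5 bp. Over the other ORFs with the motif the medians were 153 bp for Abf1 and 151.5 bp for TTACCC, with 83.9 and 72.6% of genes between 120 and 200 bp. Of the remodeler genes 10 of 10 and 8 of 9 were in this range, the exception being SWR1, whose 2 Reb1 motifs were 213.5 and 248.5 bp upstream of the +1 dyad in an NDR of 394 bp. Relative to the TSS the Abf1 motifs lay 93 to 117 bp upstream at 9 of 10 genes, and at SWI3 the motif was centered on the TSS itself. Whether TSS or +1 dyad gives the narrower range depends on the genes left out and on the column. At SNF11 TTACCC lay 24.5 bp downstream of the TSS. SWI3 and SNF11 are among the genes with a far +1 dyad. At SNF11 the second column puts the +1 dyad on the motif, and at the remaining 8 genes with TTACCC the motif stayed upstream of the dyad by 119.5 bp or more.

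**Figure D4:**
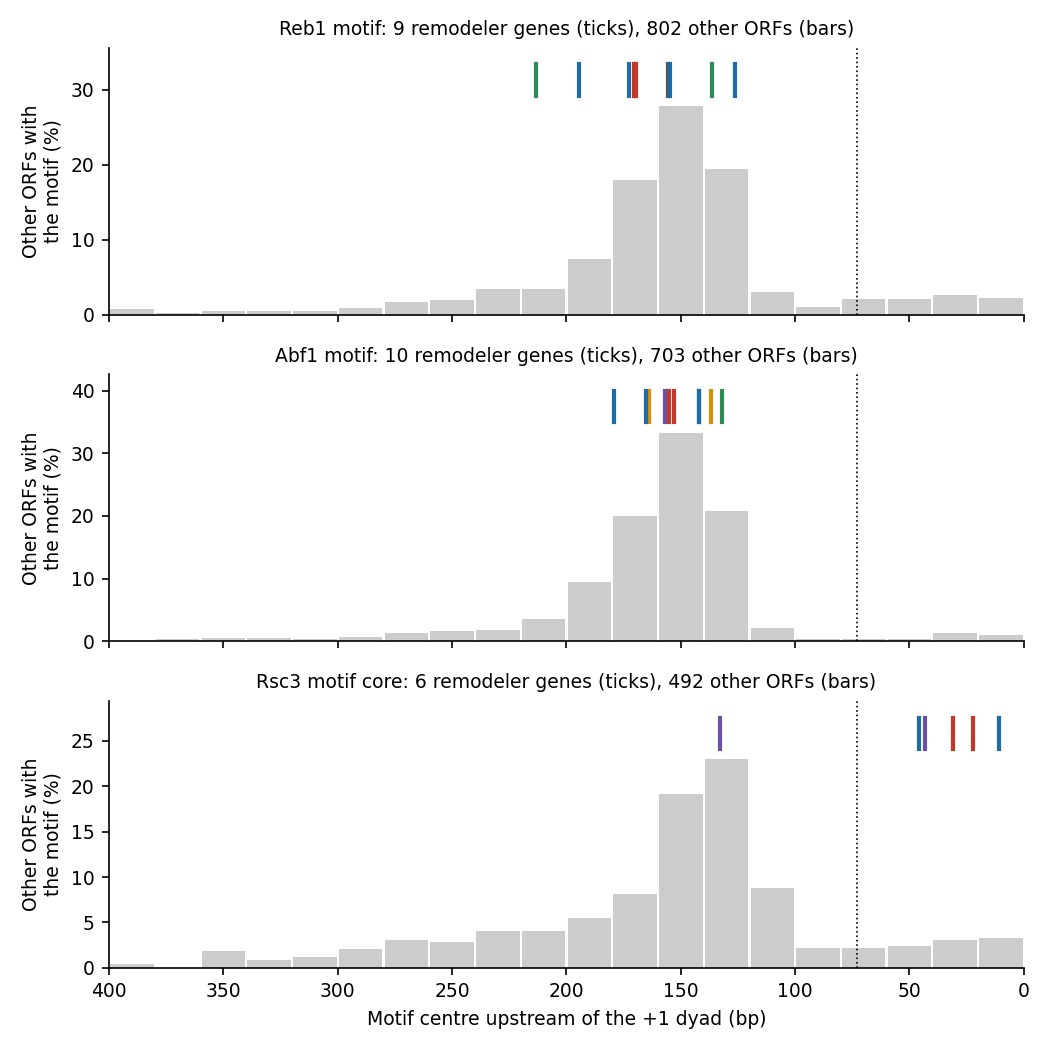
Distance in bp from the motif center to the +1 dyad (horizontal axis, dyad at the right edge, nearest motif per gene). Grey bars give the share of other ORFs with the motif in bins of 20 bp in percent (vertical axis), colored ticks single remodeler genes by complex, and the dotted line the border of the core 73 bp from the dyad. The Abf1 ticks fall between 132 and 179 bp under the tallest bars, and 5 of 6 ticks for the Rsc3 motif core fall within 73 bp.

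Where a promoter held both factors' motifs, as in the sequences of RSC1, RSC3 and SNF2 shown above, the motifs were neighbors. At RSC3 the Abf1 motif was centered 142 bp and TTACCC 126.5 bp upstream of the +1 dyad, at SNF2 155 and 170.5 bp, and at RSC1 179 and 194.5 bp, so that the centers were 15.5 bp apart, with 6 bases between the motifs, at each of the 3 genes. Among the 92 other ORFs with both motifs the nearest pair had this spacing at 5 genes and a median spacing of 33 bp, and this spacing was singled out after its values were seen. The order was inverted in RSC3, where the Abf1 motif was the upstream one, and there it was on the coding strand while it was on the opposite strand in SNF2 and RSC1. RSC30, the paralog of RSC3, held an Abf1 motif at the same distance of 142 bp by the first column (275 bp by the second) but on the opposite strand and no TTACCC. At IOC3 the Abf1 motif was present on both strands with centers 139 and 137 bp upstream.

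CGCGC, the letters known for the Rsc3 and Rsc30 subunits themselves, was present in the NDR of 6 of 36 genes (16.7%, interval 6.37 to 32.8%), against 11.1% of the other ORFs, a share within the interval. All 6 encode subunits of RSC or SWI/SNF, as most of the 36 genes do, namely RSC2, STH1, ARP7, ARP9, SWI3 and SNF6. RSC3 and RSC30 had none. In the window of 250 bp BDF1, an SWR1 gene, was added, which made 7 of 36 genes (19.4%), against 11.1% of the other ORFs. At the other ORFs with CGCGC the median of the nearest copy was 144 bp upstream of the +1 dyad and 10.2% of genes had it within 73 bp of the dyad. At 5 of the 6 genes the nearest copy was within 73 bp, at 11 bp in STH1, 22 bp in SNF6, 31 bp in SWI3, 43 bp in ARP7 and 46 bp in RSC2, and ARP9 had it at 133 bp. In these 5 genes the copies lay downstream of the TSS, by 9 bp at RSC2 up to 180 bp at STH1, and at SNF6 the copy was inside the coding region. With the second column the copies at STH1 and SNF6 were 167 and 55 bp past the dyad, and those of ARP7, SWI3 and RSC2 were 21, 14 and 73 bp upstream of it. STH1 also held the only CACGTG, the core of the Cbf1 site, in 2 copies centered 211.5 and 197.5 bp upstream of its +1 dyad.

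Homopolymeric stretches of A or T stiffen DNA and disfavor nucleosomes. A run of 6 or more A or T was present in 29 of 36 NDRs (80.6%, interval 64 to 91.8%), against 68.0% of the other ORFs. The longest run had a median of 7 bases and reached 12, beside a median of 6 bases over the other ORFs, whose share of NDRs with a run lies within the interval. TATAAA was present in 17 NDRs (47.2%), against 40.9%. The content of A and T in the NDR differed little, with a median of 64.55% against 64.46%.

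Along the promoter the mean content of A and T peaked at different distances in the remodeler genes and the other ORFs, which was not tested. Averaged over the remodeler genes it was highest 120 bp upstream of the +1 dyad, with 72.8%, and over the other ORFs 95 bp upstream, with 68.2%. In the window of 21 bp centered 120 bp upstream, single remodeler genes ranged from 47.6 to 95.2% with quartiles of 66.7 and 81.0%, and the quartiles of the other ORFs were 57.1 and 76.2%. At 95 bp upstream the medians were equal at 66.7%. The ranges overlap widely, and with 36 genes the height at single positions is uncertain. Within the plotted range the content was lowest 50 bp downstream of the dyad, with 55% in the remodeler genes and 58.7% in the other ORFs.

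**Figure D5:**
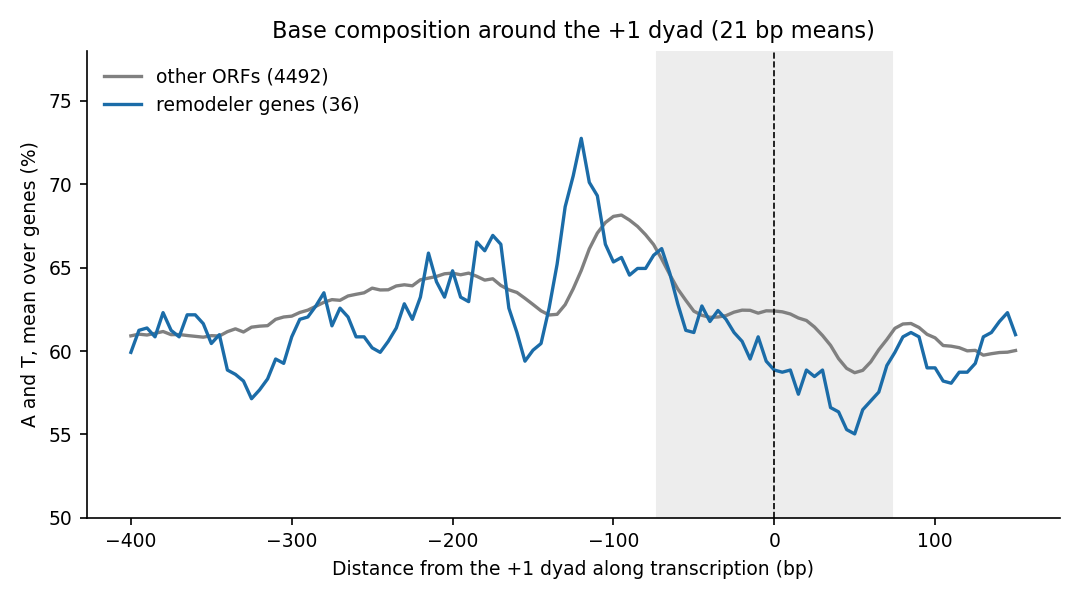
Mean content of A and T in percent (vertical axis) in windows of 21 bp along the distance from the +1 dyad in bp (horizontal axis), for the remodeler genes and the other ORFs. The grey area is the core, 73 bp to either side of the dyad. The remodeler genes peak at 72.8% at 120 bp upstream and the other ORFs at 68.2% at 95 bp upstream.

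The remodeler genes were longer than other ORFs in the median. The transcripts had a median length of 1865 bp, from 609 bp at RTT102 to 5417 bp at SNF2, against 1585 bp over the other ORFs. The distance from the +1 to the last dyad of the gene ran from 327 bp at RTT102 to 5260 bp at SNF2 with a median of 1763 bp, against 1423 bp. The last dyad lay a median of 99 bp before the transcript end, against 108 bp, with the closest at SNF11 with 8 bp and VPS71 with 12 bp and the farthest at RSC6 with 265 bp and RSC2 with 245 bp.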

How the data were processed

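Nucleosome dyads came from 1 in vivo MNase-seq library. Per the methods of the study, the authors mapped the reads with Bowtie to SacCer3, shifted read ends by 73 bp to the dyad, smoothed the dyad density, called the highest peak and then the next outside a minimum distance, took the nearest peak downstream of each TSS as the +1 dyad and the next one upstream as the −1 dyad. That minimum distance limits how short an NDR can be, and the shortest above 0 was 120 bp by the first column. Lengths by the second column used the same −1 dyad and are not held to this limit. The deposited values are coordinates in bp and were used as such, with no normalization. Per the labels 91 libraries belong to the series, and values of the others are not analysed here. The deposited NDR length equaled the distance between the dyads in all 4903 transcripts that have one. All positions of the 16 chromosomes lie within R64, and all 1662 BamHI, 4221 EcoRV and 1904 KpnI sites listed by the authors lie at their recognition sequences in it.

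Genes were found by common name. Distances were taken along transcription. Start codons and neighbors came from RefSeq (R64), matched by systematic name for 36 of 36 genes and 4377 of 4500 other ORFs. The next gene upstream was the annotated gene of any kind whose end lies nearest before the start codon. Motifs were searched on both strands between the dyads, as the letters spelled out in the text or, for the longer Abf1 motif, its consensus, and motifs may overlap. Medians, quartiles and exact Clopper-Pearson binomial intervals (95%) are given without a test, since the design has 1 library. The members, gene lists and motifs were chosen with earlier results of these data known. Values in full were given for the extremes of each complex, far +1 dyads, genes on which the columns differ and related pairs, and sequences for up to 8 genes with motifs. 5 columns of other coordinates were not used. On simulated positions and sequences with known answers, the scripts returned each distance and motif as placed. Python 3.11.15 with numpy 2.4.6, pandas 2.3.3, scipy 1.17.1 and matplotlib 3.10.9 was used.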

Additional observations from a re-analysis of the deposited data

How the results depend on the processing

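The results were recomputed under 43 alternatives, of which 28 were planned and 15 added after the data were seen, the latter being the shared rows, rows with a mapped 5′ end, the window of 250 bp, the second column for the far +1 dyads, for either motif and for related pairs, and the NDR without the 73 bp next to each dyad for either motif. In 35 of them the value stayed within the 95% interval of the value reported, from order statistics for medians and exact binomial for shares. For the medians of the SWI/SNF, SWR1 and ISWI genes and of the related pairs, this interval was the full range of values. A median that stays within it therefore says little, and for the 4 ISWI genes the interval falls short of 95% coverage. The 8 alternatives outside the interval were as follows. The median NDR length of the 4 ISWI genes became 238 bp when the second +1 column was taken. With that column the median NDR difference of related pairs was 46.5 bp, and the share of genes with the +1 dyad at or past the start codon was 50.0%. The share with CGCGC in the NDR was 2.86% without the 73 bp next to each dyad (1 of 35 genes), 38.9% with CGCG and 0% with CGCGCG, motifs which 7.80, 27.9 and 1.40% of the other ORFs held under the same settings. For runs of A or T the share was 38.9% for 8 bases and 19.4% for 10 bases, against 33.7 and 18.5% of the other ORFs. The median NDR length of all members stayed between 256 and 267 bp, and that of the RSC genes between 277 and 284 bp, while that of the SWI/SNF genes was 231 bp with the second column. No paired analysis was possible because the deposited values hold no replicate libraries. The positions come from 1 library, with no depth, so that no error of a single dyad could be given beyond the difference between the columns.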

Other observations

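A list of 20 further genes for remodeler subunits and associated proteins, of which INO80, its subunits and factors shared with other complexes make up most, had a median NDR length of 281 bp with quartiles of 267 and 308 bp over the 19 with a −1 dyad. The +1 dyad of these genes lay a median of 73.5 bp from the TSS, against 54 bp over the other ORFs. At 7 of the 20 it lay more than 100 bp away, against 14.0% of the other ORFs. By the second column the medians of the listed genes were 263 bp for the NDR and 54 bp from TSS to +1 dyad. Over the other ORFs they were 261 and 50 bp by that column. The values that follow are from the first column. INO80 itself, which encodes the ATPase of the complex that the study reconstituted, had an NDR of 291 bp with the +1 dyad at 168 bp and the −1 dyad at 123 bp from the TSS. As at ARP7 and SWI3, the TSS was closer to the −1 dyad than to the +1 dyad. NHP10, for an HMG box subunit of INO80, had 345 bp, ARP8 320 bp and ARP5 273 bp, and IES5 had the shortest with 138 bp. The +1 dyad of ACT1 lay at 178 bp, and no NDR length is listed for it.

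The restriction sites that the study used as cleaved ends fell in the NDR of 5 of 36 remodeler genes (13.9%), against 10.4% of the other ORFs. RTT102 had a BamHI site 239 bp upstream of its +1 dyad, HTL1 an EcoRV site at 177 bp, IOC3 an EcoRV site at 52 bp, VPS71 an EcoRV site at 36 bp and SNF5 a KpnI site at 19 bp. The 3 latter lie within 73 bp of the +1 dyad and so inside its core. The site of RTT102, at position 1043076, lies inside the core of its −1 nucleosome, whose dyad is at position 1043059. These sites are predicted from sequence and carry no measurement.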
